A study of Arabidopsis thaliana with 6 samples.

Results

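The ATH1 array carries its plastid genome probe sets, and part of its mitochondrial ones, in 1 range of consecutive probe set numbers, and the probe sets of that range were followed in Arabidopsis pollen tubes. They were chosen by number alone, though with earlier results of these data known, and comprised 150 of the 22746 probe sets in the table. The platform annotation, updated through RefSeq, placed 77 of them on the plastid genome (76 genes) and 13 on the mitochondrial genome. A further 2, orf25 and orf143, carried open reading frame names taken only from a published table of genes selected on these same arrays, so that their inclusion is not independent of their values. Together these 92 are called organelle members below. The range was not confined to organelles: 12 probe sets belonged to neighbouring nuclear loci of chromosome 2 (AT2G26), 5 to loci in another stretch of that chromosome (AT2G07), and 41 could not be named here. Conversely, 11 mitochondrial probe sets (for nad1, nad2, nad5 and cox1) lay outside the range, and no plastid one did.

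RNA came from pollen tubes grown in vitro for 8 h in the dark, from 3 preparations of the agp6 agp11 double null mutant and 3 of wild type, each hybridised to 1 array. The mutant line was a single homozygous line carrying Ds transposon insertions in AGP6 and AGP11, which encode arabinogalactan proteins of pollen. It was obtained by crossing a pair of tagged RIKEN lines, and both genotypes were of the Nossen ecotype. Each preparation pooled pollen from many flowers, and ungerminated grains were washed away through a nylon mesh. AGP6 had signals of 31.1, 29.1 and 15.1 in agp6 agp11 and 13313, 13677 and 9597 in wild type. AGP11 had signals of 34.7, 40.4 and 32.5 in agp6 agp11 and 10016, 9448 and 5604 in wild type, so that both targeted genes followed the labels. Median signals over all probe sets were 23.3 to 24.6 on the 6 arrays, and 6280 to 6795 probe sets exceeded 40. With 3 arrays a genotype, the precision of each comparison is limited by their number.

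Plastids and mitochondria keep small genomes of bacterial origin. The plastid genome encodes core subunits of the photosystems, the cytochrome b6f complex, the ATP synthase, the NDH complex and Rubisco, together with ribosomal proteins and a bacterial-type RNA polymerase, and many of its genes are transcribed together in long RNAs. The mitochondrial genome encodes subunits of the respiratory chain and proteins that mature cytochrome c. Plastids of pollen are not green, and mitochondria supply much of the energy for tube growth. Organelle RNAs are mostly without the long poly(A) tails of nuclear mRNAs, and in organelles a tail commonly marks an RNA for decay. The labelling kit used here primes cDNA from poly(A), and how much of each organelle RNA it captured was not tested. Nuclear copies of organelle genes are another reservation. In the Columbia ecotype the AT2G07 loci lie in a copy of mitochondrial DNA inserted into chromosome 2, and a probe cannot tell the copies apart.

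Plastid members gave low to moderate signals in most cases. A signal above 40 on at least 2 of the 3 arrays of a genotype was counted as detection, and by that measure 57 of the 77 plastid members (74.0%) were detected in agp6 agp11 and 54 (70.1%) in wild type. Over all probe sets the shares were 28.7% in agp6 agp11 and 28.2% in wild type. There were 46 plastid members above 40 on all 6 arrays and 8 on none. Mean signals ran between 17.3 and 547 in agp6 agp11 and between 13.6 and 233 in wild type, where 15 members (19.5%) averaged over 100 and 2 (2.60%) over 200. Over all probe sets 14.4% averaged over 100 and 8.85% over 200 in wild type. The plastid share was thus above that of all probe sets at 100 and below it at 200. Signals of different probe sets depend on their probes as well as on RNA, so the order of genes given below is an order of signals only.

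The plastid signals with the highest means came from genes of several complexes. ccsA, which encodes a protein that attaches haem to plastid c-type cytochromes, had signals of 240, 957 and 444 in agp6 agp11 and 204, 221 and 273 in wild type. rps7, a protein of the small ribosomal subunit, had signals of 245, 641 and 268 in agp6 agp11 and 206, 244 and 228 in wild type. In both genes the second agp6 agp11 array stood far above the other 5, while the wild type arrays lay close together. psbZ, a small subunit of photosystem II, gave 216, 494 and 278 in agp6 agp11 and 173, 229 and 194 in wild type. rpl2, a protein of the large ribosomal subunit, gave 199, 640 and 272 in agp6 agp11 and 143, 210 and 194 in wild type. ndhC, a membrane subunit of the NDH complex, gave 149, 505 and 306 in agp6 agp11 and 161, 202 and 178 in wild type, with the first mutant array below all 3 wild type arrays. At the other end, rpoB, the second largest subunit of the plastid RNA polymerase, gave 14.8, 23.7 and 13.2 in agp6 agp11 and 13.5, 12.6 and 14.8 in wild type, with every array below 40. Around the signal of 40, psbC averaged 55.8 in agp6 agp11 and 40.8 in wild type, and psbL averaged 45.3 in agp6 agp11 and 37.7 in wild type. Both encode subunits of photosystem II.

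Genes known for very abundant RNAs in leaves were among the members of low to moderate signal. rbcL, the large subunit of Rubisco, had 59.5, 120 and 56.2 in agp6 agp11 and 44.7, 63.6 and 64.3 in wild type. psbA, the D1 protein at the centre of photosystem II, had 33.2, 76.2 and 41.5 in agp6 agp11 and 30.6, 26.5 and 40.8 in wild type. In wild type psbA exceeded 40 on the third array alone. psaA, a core protein of photosystem I, stayed between 20.1 and 23.6 in agp6 agp11 and between 16.5 and 18.3 in wild type. These genes and accD, named further on, were chosen for their function after their values had been seen.

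One library stood apart in the plastid genes, and this bears on every genotype difference below. Over the 77 plastid members the median signals were 59.5, 143 and 56.6 on the 3 agp6 agp11 arrays and 48.3, 62.8 and 63.2 on the 3 wild type arrays. The second agp6 agp11 array was the highest of the mutant arrays for 75 of 77 plastid members (97.4%), against 36.0% of all probe sets, and the highest of all 6 arrays for 71 members. It exceeded both other mutant arrays by more than 2-fold for 39 plastid members (50.6%), against 89 of all 22746 probe sets (0.391%). Those 39 made up 43.8% of the 89. Among 9624 other probe sets of like wild type signal, 34 did so (0.353%), and their median ratio of that array to the mean of the other mutant arrays was 1.03. The plastid median of the same ratio was 2.28, and it ran between 1.04 and 4.85. The median over all probe sets was 24.2 on that array, and 6690 probe sets exceeded 40, both within the range of the other arrays. The same amount of total RNA was labelled for each array. Because RNA of whole preparations was hybridised, more organelles per tube and more RNA per organelle cannot be told apart.

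**Figure D1:**
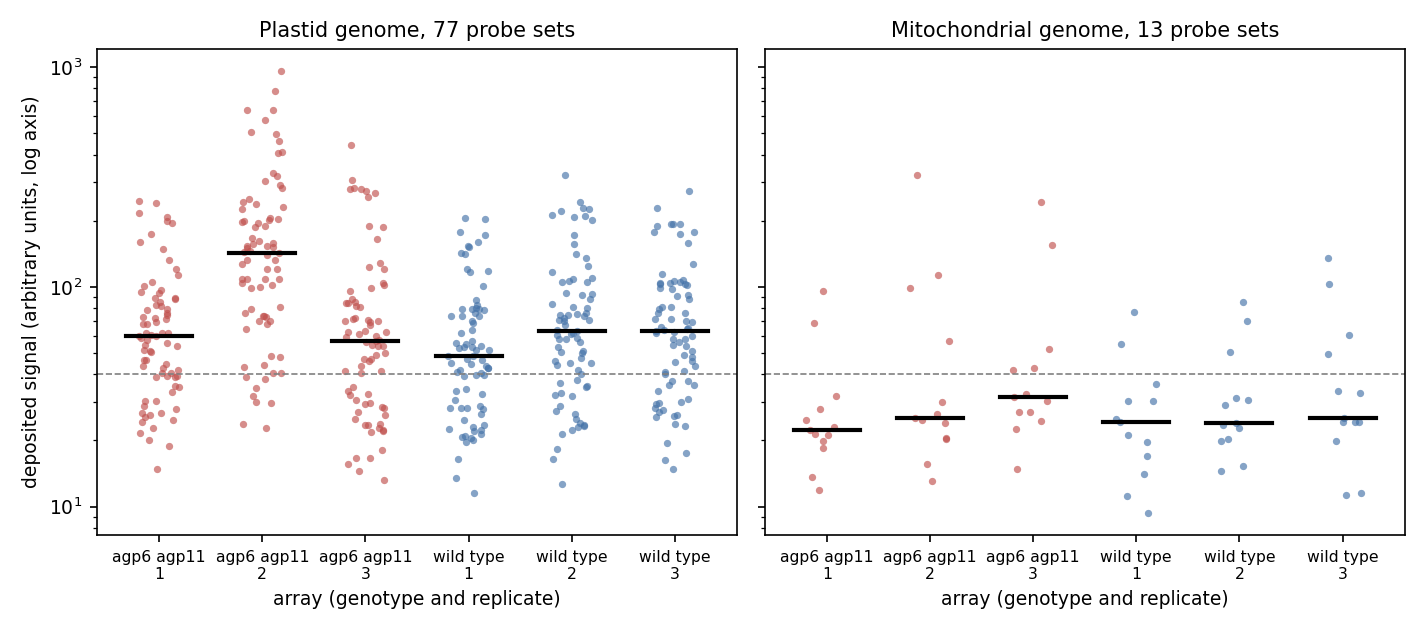
Deposited signal (arbitrary units, log axis) of the 77 plastid members (left) and the 13 mitochondrial members (right) on each of the 6 arrays. Points are probe sets, black bars are medians and the dashed line is a signal of 40. The plastid median was 143 on the second agp6 agp11 array and 48.3 to 63.2 on the other 5 arrays, whereas the mitochondrial medians stayed between 22.3 and 31.6.

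The displacement extended over every class of plastid gene. The median ratio of the second agp6 agp11 array to the mean of the other mutant arrays was 2.58 for 20 ribosomal protein probe sets, 2.35 for 6 of the ATP synthase and 2.24 for 11 of the NDH complex. It was 2.17 for 4 of the RNA polymerase, 2.04 for 15 of photosystem II, 2.01 for 6 of the cytochrome b6f complex and 1.99 for 5 of photosystem I. The 10 remaining plastid members, among them ccsA, clpP, matK and rbcL, had a median ratio of 2.46. Members above 40 on all arrays had a median of 2.47 (46 probe sets) and the other 31 a median of 2.04. The lowest ratios belonged to psaA (20.1, 22.7 and 23.6 in agp6 agp11) and psaC (30.4, 29.9 and 25.1 in agp6 agp11), both dim, and in these alone a mutant array other than the second was highest. For 12 plastid members the second array was the only mutant array above 40. Among wild type arrays the first was the lowest for 56 of 77 members, and its median ratio to the mean of the other wild type arrays was 0.795. The median coefficient of variation between arrays of the plastid members was 0.535 in agp6 agp11 and 0.188 in wild type, and it was 0.147 for the mutant arrays without the second.

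**Figure D2:**
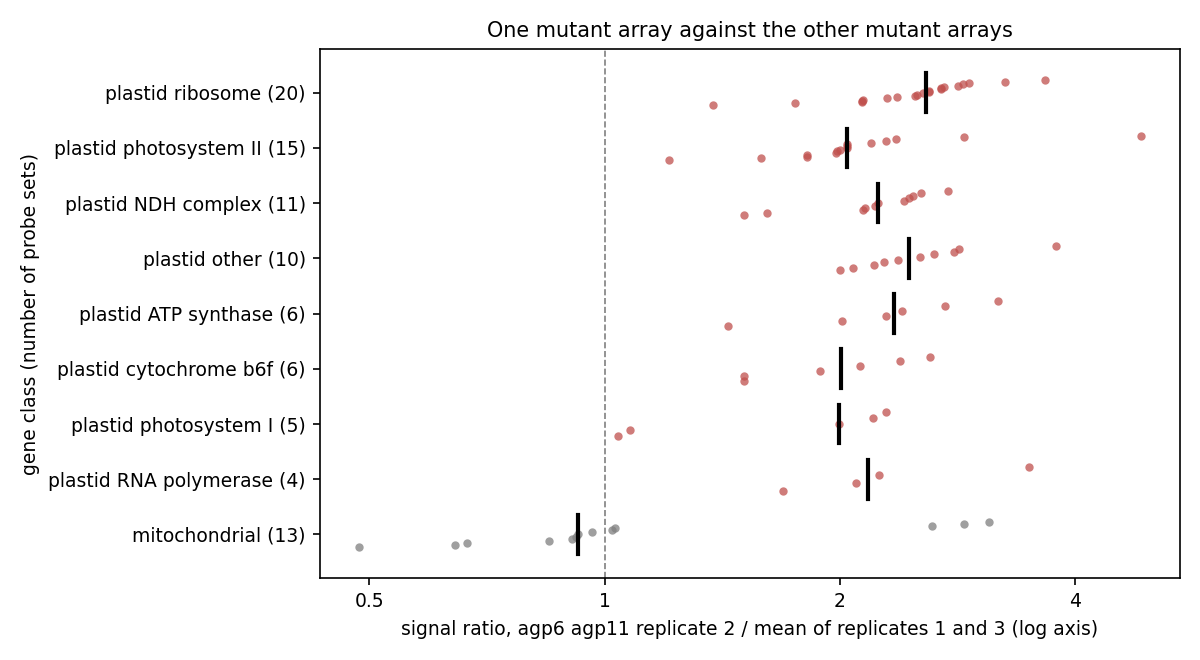
Ratio of the signal on the second agp6 agp11 array to the mean of the other agp6 agp11 arrays (log axis), for each plastid class and for the mitochondrial members. Points are probe sets, black bars are class medians and the dashed line is a ratio of 1. Class medians of plastid genes lie between 1.99 and 2.58, and the mitochondrial median is 0.926, with 3 mitochondrial members above 2.

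The median ratio was above 1 in each of 11 runs of neighbouring plastid genes, while genes within a run differed in its size. The run of genes from rpoA to rpl23, which encodes mainly ribosomal proteins, was represented by 9 probe sets with median signals of 97.1, 232 and 71.1 in agp6 agp11 and 79.2, 105 and 97.5 in wild type. The run from ndhD to rps15 (8 probe sets), mainly of the NDH complex, had medians of 60.7, 127 and 42.1 in agp6 agp11 and 47.7, 70.3 and 56.3 in wild type. The run from psbB to petD (6 probe sets), which joins photosystem II and cytochrome b6f genes, had medians of 46.2, 114 and 55.6 in agp6 agp11 and 41.1, 45.9 and 51.8 in wild type. In all 3 runs the median of the second mutant array was above that of every other array. Within the run from ndhD to rps15 the ratio of the second mutant array to the mean of the others went from 1.08 for psaC to 3.25 for rps15, and within that from rps14 to psaA (3 probe sets) from 1.04 for psaA to 2.60. The run from accD to petA (5 probe sets) begins with accD, which encodes a subunit of the acetyl-CoA carboxylase of fatty acid synthesis and is transcribed by a nuclear-encoded polymerase. Its medians were 71.3, 159 and 69.6 in agp6 agp11 and 53.1, 83.8 and 81.3 in wild type. The run from rpoC2 to rpoB (3 probe sets), known to depend on the same nuclear-encoded polymerase, had a median ratio of 2.25 of the second mutant array to the mean of the others, and that from psbD to psbZ (3 probe sets) one of 1.82.

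The members of widest spread included psbM, matK, rpl23 and rps15. psbM, a small subunit of photosystem II, gave 60.6, 319 and 70.8 in agp6 agp11 and 79.5, 323 and 106 in wild type, so that the second array of each genotype was high. Its ratio of 4.85 was the highest among plastid members, yet the genotypes hardly differed within the second pair (ratio of agp6 agp11 to wild type 0.988). In petN, its neighbour on the plastid genome, the second array was also the highest of each genotype, by less (168 in agp6 agp11 and 75.3 in wild type). Among the 77 plastid members the second array was the highest mutant array for 75 and the highest wild type array for 42. matK, which encodes an intron maturase, gave 89.1, 410 and 128 in agp6 agp11 and 120, 110 and 114 in wild type, and the second mutant array alone lay far from the rest. rpl23 gave 105, 292 and 53.7 in agp6 agp11 and 80.4, 135 and 104 in wild type, the other mutant arrays lying on either side of the wild type median. rps15 gave 61.9, 239 and 85 in agp6 agp11 and 68.7, 70.4 and 102 in wild type, where the second mutant array alone lay above the range of wild type.

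Mitochondrial members, most of them dim, did not show the displacement in their medians. Their median signals were 22.3, 25.4 and 31.6 in agp6 agp11 and 24.2, 24 and 25.3 in wild type. The third agp6 agp11 array was the highest of the mutant arrays for 10 of 13 members and the first wild type array the lowest of its genotype for 12. Over all 22746 probe sets these counts were 8017 and 5550. Members above 40 on at least 2 arrays numbered 2 (15.4%) in agp6 agp11 and 3 (23.1%) in wild type. Over all probe sets the shares were 28.7% in agp6 agp11 and 28.2% in wild type. The exceptions to the third array were nad4, ccmFN1 and the probe set shared by rps3 and rpl16. For these 3 of 13 members (23.1%) the second mutant array was more than 2-fold above the others, against 0.391% of all probe sets. Of these, nad4 and ccmFN1 were among the 3 mitochondrial members with a mean signal above 40 over all arrays.

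nad4, a subunit of respiratory complex I, had signals of 68.3, 322 and 155 in agp6 agp11 and 76.8, 84.99 and 135 in wild type, and the genotypes overlapped. cox2, a core subunit of cytochrome c oxidase, had signals of 96.2, 114 and 244 in agp6 agp11 and 54.9, 69.7 and 103 in wild type. In both genotypes the third array of cox2 was the highest, and agp6 agp11 exceeded wild type in each numbered pair, by 1.75-, 1.63- and 2.38-fold. cox1, a further subunit of that oxidase whose probe set lies outside the range, gave 37.3, 73.5 and 96.0 in agp6 agp11 and 42.2, 47.9 and 68.1 in wild type, again with the third array highest. The proteins of cytochrome c maturation gave dimmer signals. ccmFN1 had 32.03, 98.6 and 31.6 in agp6 agp11 and 36.3, 50.6 and 60.5 in wild type. ccmB had 21.2, 24.9 and 32.5 in agp6 agp11 and 30.4, 31.3 and 33.5 in wild type, and ccmFC had 22.9, 24.1 and 30.2 in agp6 agp11 and 25.1, 24 and 32.8 in wild type. ccmB and ccmFC stayed below 40 on every array, and the genotypes overlapped in all 3 genes. nad9, also of complex I, gave 27.7, 29.9 and 42.6 in agp6 agp11 and 30.2, 30.5 and 49.8 in wild type. matR, an intron maturase, was the dimmest, between 13.1 and 14.8 in agp6 agp11 and between 9.37 and 15.3 in wild type.

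Log2 signals of all 22746 probe sets were fitted with limma for the difference between genotypes, at a Benjamini-Hochberg adjusted p of 0.05. Of the 150 probe sets of the range, 3 were higher in agp6 agp11 and none lower, against a background of 2.01% of all probe sets called higher. No plastid or mitochondrial member passed. An unadjusted p under 0.05 was found for 9 plastid members (11.7%) and 1 mitochondrial member (7.69%), against 13.8% of all probe sets. The median log2 difference of agp6 agp11 minus wild type was 0.38 over the plastid members, where 71 of 77 were positive, and 0.24 over the mitochondrial members, where 7 of 13 were. It was 0.03 over all probe sets, where 12392 of 22746 were positive. Without the second agp6 agp11 array the plastid median was 0.03, with 41 of 77 positive, and the mitochondrial median was -0.03, whereas over all probe sets it was 0.02 without that array. In numbered pairs the median ratio of agp6 agp11 to wild type over plastid members was 1.19, 2.16 and 0.901. Plastid members higher in agp6 agp11 in all 3 pairs numbered 23 (29.9%), against 23.1% of all probe sets. The arrays of agp6 agp11 lay wholly above those of wild type for 12 plastid and 2 mitochondrial members, against 11.3% of all probe sets, and wholly below for none, against 8.71%.

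**Figure D3:**
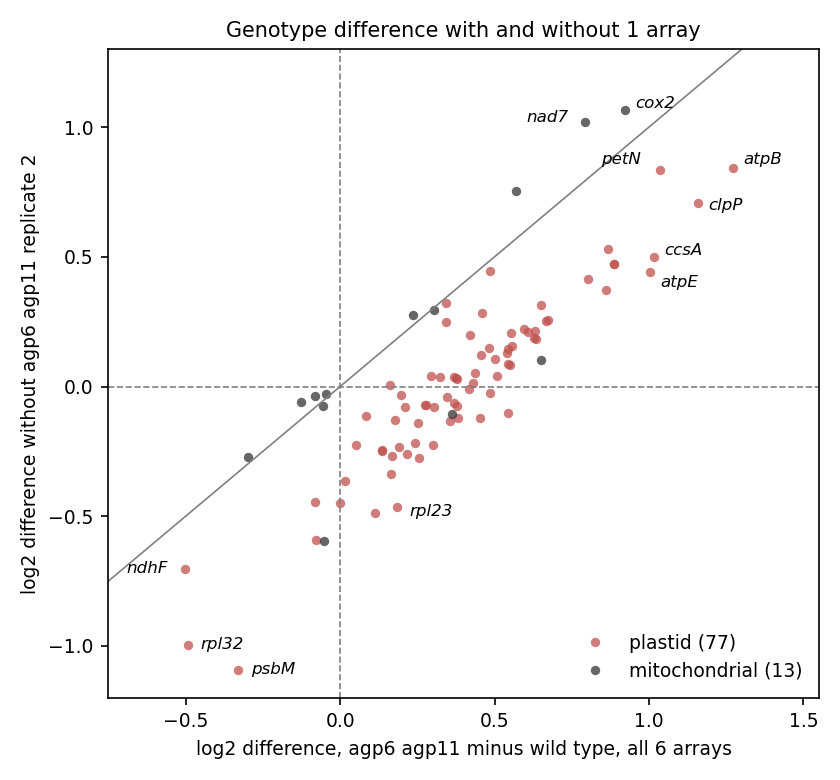
Log2 difference of agp6 agp11 minus wild type with all 6 arrays (x axis) and without the second agp6 agp11 array (y axis) for the 77 plastid and 13 mitochondrial members. Each point is a probe set, the grey line marks equal values and dashed lines mark 0. Plastid members lie below the line of equal values with a median of 0.38 on the x axis and 0.03 on the y axis, while cox2 and nad7 lie above it.

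The numbered arrays of the genotypes deviated together over all probe sets, so the comparison was also made with the replicate number as a block. Over the plastid members this was not seen. Their correlations were 0.082, 0.071 and 0.066 for same-numbered arrays and -0.260 to 0.162 for arrays of unlike number. Calls with the block therefore rest on a pairing that no label states. With the replicate block, 11 probe sets of the range were higher in agp6 agp11, 5 of them plastid and 1 mitochondrial, against a background of 5.03% of all probe sets. Without the second pair, 9 of the range were higher, among them 3 plastid and 2 mitochondrial members, against 5.21%, and 1 unnamed probe set was lower, against 3.20%. Without the first pair 2 plastid members (atpB and clpP) passed, both higher, against 1.50% of all probe sets called higher. Without the third pair 44 of 77 passed, counted in both directions. In that fit 2580 of all 22746 probe sets passed in both directions, and 6.92% were called higher. The count of plastid genes called therefore depended on which pair entered the fit. Among the plastid genes, atpB and clpP passed with the block in all of these fits.

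The plastid genes called with the block belonged to the ATP synthase, the cytochrome b6f complex and the Clp protease. atpB encodes the catalytic beta subunit of the ATP synthase. It had signals of 67.7, 196 and 95.6 in agp6 agp11 and 28.6, 61.9 and 50.9 in wild type, and every mutant array lay above every wild type array. Its log2 difference was 1.27 ± 0.41 (SE; adjusted p = 0.164) without the block and 1.27 ± 0.19 (adjusted p = 0.0025) with it, and 0.84 (adjusted p = 0.332) without the second mutant array. atpE, the adjoining gene for the epsilon subunit, had signals of 209, 778 and 279 in agp6 agp11 and 151, 209 and 178 in wild type. The lowest mutant array and the highest wild type array were almost equal. Its log2 difference was 1.00 ± 0.44 (adjusted p = 0.353) and passed only with the block (adjusted p = 0.044), not without the second pair (adjusted p = 0.180). atpH, which encodes the ring subunit c, had signals of 101, 226 and 124 in agp6 agp11 and 53.5, 107 and 81.1 in wild type, overlapping between genotypes. Its log2 difference was 0.87 ± 0.35 (adjusted p = 0.307), and its adjusted p was 0.012 with the block and 0.053 with the block without the second pair. Over the 6 ATP synthase probe sets the median log2 difference was 0.66, and 0.36 without the second mutant array. Of these, atpI, atpA and atpF did not pass with all arrays, with or without the block. Their log2 differences were 0.46, 0.19 and 0.17. Without the second mutant array they were 0.28, -0.23 and -0.34.

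petN encodes a small subunit of the cytochrome b6f complex that carries electrons between the photosystems. It had signals of 120, 168 and 102 in agp6 agp11 and 55.0, 75.3 and 57.6 in wild type. All 3 mutant arrays lay above all wild type arrays, and the second mutant array exceeded the mean of the others by 1.51-fold, less than in most plastid members. The log2 difference was 1.03 ± 0.25 (adjusted p = 0.062) and 0.84 (adjusted p = 0.165) without the second mutant array. It passed with the block (adjusted p = 0.0040), also without the second pair (adjusted p = 0.013). The other 5 probe sets of that complex did not pass with or without the block. clpP encodes the proteolytic subunit of the plastid Clp protease. It had signals of 196, 574 and 257 in agp6 agp11 and 118, 173 and 127 in wild type, without overlap. Its log2 difference was 1.16 ± 0.39 (adjusted p = 0.185) and 0.71 (adjusted p = 0.328) without the second mutant array. Its adjusted p was 0.0077 with the block and 0.027 with the block without the second pair.

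**Figure D4:**
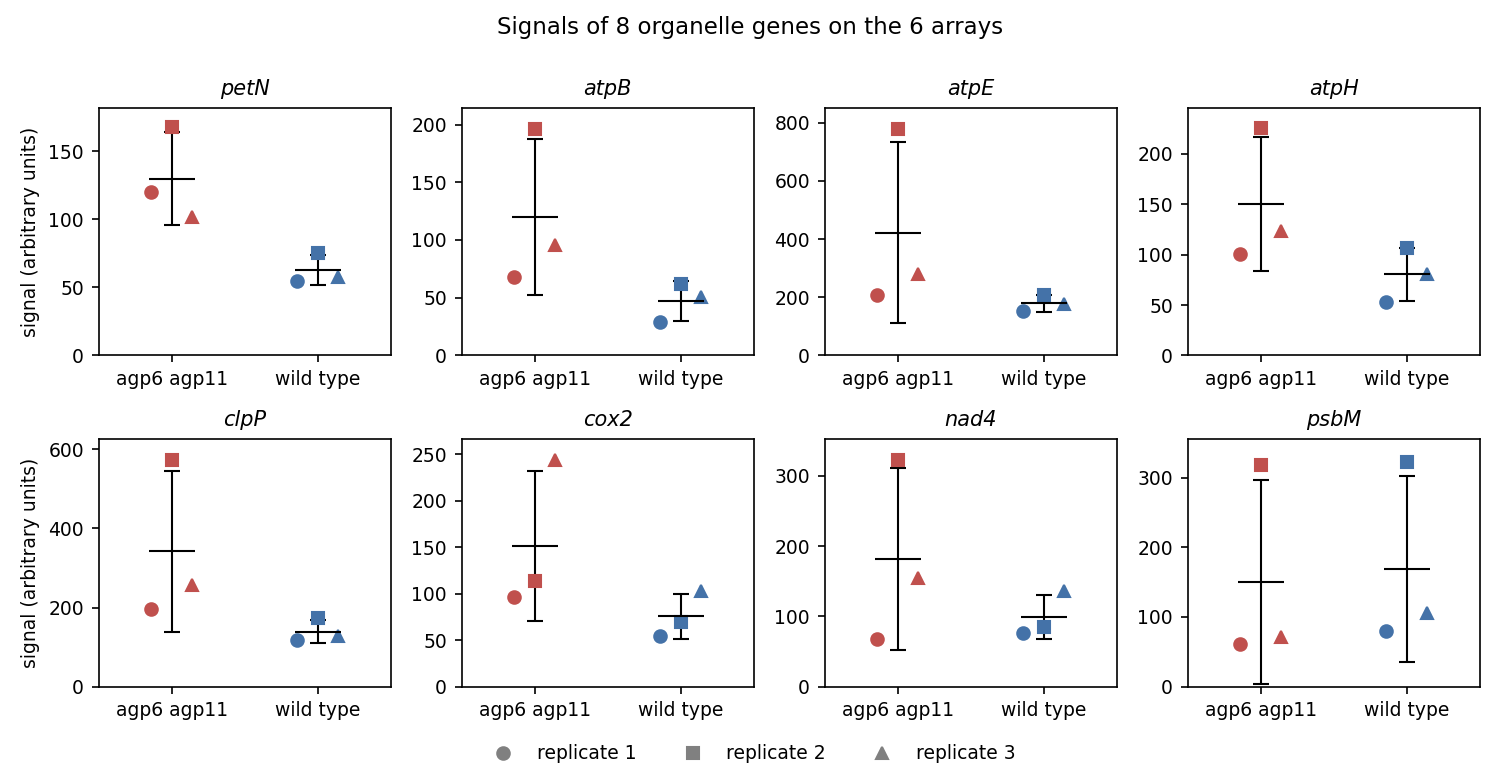
Deposited signal (arbitrary units) of 6 plastid genes (petN, atpB, atpE, atpH, clpP and psbM) and 2 mitochondrial genes (cox2 and nad4) in agp6 agp11 (left) and wild type (right) of each panel. Symbols give the replicate number, and horizontal lines and bars the mean and SD of 3 arrays. For petN, atpB and clpP the 3 mutant arrays lie above all wild type arrays, and for psbM the second array of both genotypes is near 320.

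Other plastid classes gave smaller differences. The median log2 difference was 0.50 over the class that holds ccsA and clpP, 0.48 for photosystem I, 0.42 for photosystem II, 0.42 for the RNA polymerase, 0.36 for cytochrome b6f, 0.28 for ribosomal proteins and 0.20 for the NDH complex. Without the second mutant array these medians were 0.07, 0.32, 0.05, 0.09, -0.02, -0.13 and -0.13 in the same order. Under that setting 10 of the 11 NDH probe sets had a negative difference, against 10901 of all 22746 probe sets. None of the 11 had an unadjusted p under 0.05 in that limma fit. With all arrays 6 plastid members were negative. They included ndhF, with 35.1, 47.9 and 28.4 in agp6 agp11 and 61.8, 73.7 and 29.7 in wild type, and rpl32, with 26.6, 69.8 and 22.7 in agp6 agp11 and 28.2, 74.4 and 56.0 in wild type. Neither passed with all arrays, with or without the block, and their arrays overlapped.

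Among mitochondrial members, cox2 passed with the block, though not without the first pair. Its log2 difference was 0.92 ± 0.37 (adjusted p = 0.302), the adjusted p was 0.010 with the block and 0.00996 with the block without the second pair, and the arrays of the genotypes overlapped. nad6, of complex I, gave 21.3, 20.3 and 41.8 in agp6 agp11 and 14.1, 19.9 and 19.8 in wild type. Of the fits with the block it passed in that without the second pair (adjusted p = 0.032), where the third mutant array stood above the others. nad7, also of complex I, gave 11.9, 15.6 and 52.3 in agp6 agp11 and 11.2, 14.5 and 11.5 in wild type, so that its positive difference of 0.79 ± 0.46 rested on the third mutant array. nad4 had a log2 difference of 0.65 ± 0.49 (adjusted p = 0.641), and 0.10 without the second mutant array, and passed in the fit with the block without the third pair.

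The open reading frame orf25 was the 1 organelle member that passed with all arrays and no block. It had signals of 39.0, 52.0 and 70.7 in agp6 agp11 and 19.9, 24.8 and 27.1 in wild type, without overlap, and was thus below 40 in wild type. The log2 difference was 1.14 ± 0.24 (adjusted p = 0.032), with an adjusted p of 0.0024 under the block. The adjusted p was 0.090 without the second mutant array, 0.181 without the first wild type array and 0.091 without the second wild type array, at log2 differences of 1.15, 1.01 and 1.17. orf143 had signals of 40.9, 38.3 and 53.6 in agp6 agp11 and 27.7, 27.8 and 32.1 in wild type, and its log2 difference of 0.59 ± 0.19 did not pass (adjusted p = 0.175). The second mutant array was the lowest mutant array for orf143 and the middle one for orf25. As both names came from a table of genes selected on these arrays, neither value is independent evidence.

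The nuclear loci within the range held the clearest difference. AT2G26630, which RefSeq lists as a pseudogene, had signals of 120, 160 and 78.7 in agp6 agp11 and 18.5, 27.6 and 13.2 in wild type. Its log2 difference was 2.60 ± 0.32 (adjusted p = 0.0021), the ratio of agp6 agp11 to wild type was 6.49, 5.79 and 5.96 in the 3 pairs, and it passed in every fit that was run. AT2G26400 (ARD3), an acireductone dioxygenase of the methionine salvage pathway, had signals of 30.6, 33.0 and 45.9 in agp6 agp11 and 17.9, 16.3 and 17.0 in wild type. Of its arrays the third of agp6 agp11 alone exceeded 40. AT2G26400 differed by 1.07 ± 0.19 on the log2 scale (adjusted p = 0.012), with an adjusted p of 0.063 without the first wild type array and 0.056 without the second. Without the second agp6 agp11 array AT2G26630 and AT2G26400 were the only probe sets of the range that were called, against a background of 1.60%. AT2G26430 (RCY1), an arginine-rich cyclin, had signals of 1304, 743 and 1063 in agp6 agp11 and 637, 575 and 570 in wild type, and passed with the block (log2 difference 0.77, adjusted p = 0.027; 0.232 without it). The names AT2G26400 and AT2G26430 came only from the table of selected genes, so that these values are not independent evidence. The other 9 AT2G26 loci did not pass in either fit. AT2G07776, in the mitochondrial insertion, had signals of 44.3, 33.5 and 48.5 in agp6 agp11 and 30.7, 19.1 and 30.3 in wild type and passed with the block (log2 difference 0.68, adjusted p = 0.031; 0.218 without it). Its probe set is also listed under the name of a mitochondrial open reading frame.

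The 41 probe sets without a name here were mostly dim, with 31 of them at or below 40 on every array, and none passed in the fit with all arrays. Of the unnamed, 2 exceeded both other mutant arrays by more than 2-fold on the second. They gave 143, 467 and 195 in agp6 agp11 and 186, 213 and 236 in wild type, and 66.3, 164 and 68.3 in agp6 agp11 and 54.3, 89.0 and 66.5 in wild type. Both lie among plastid probe sets by number, and they were singled out after their values had been seen.

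Nuclear genes that serve the organelle genomes were read from a list of 17, of which 4 had a named probe set. DPD1 and MSH1 were named only by the table of genes selected on these arrays, so that the 4 are partly chosen by outcome. Of the 4, 1 was higher in agp6 agp11 and none lower, where 2.01% of all probe sets were higher. DPD1, an exonuclease that degrades organelle DNA in pollen, had signals of 66.2, 62.1 and 79.2 in agp6 agp11 and 23.8, 29.7 and 27.8 in wild type, without overlap (log2 difference 1.35 ± 0.19, adjusted p = 0.0038). The second mutant array was the lowest of its genotype for DPD1, and the difference was 1.42 (adjusted p = 0.012) without it. MSH1, which limits recombination of organelle DNA, had signals of 29.5, 25.7 and 25.5 in agp6 agp11 and 20.1, 19.8 and 16.1 in wild type (log2 difference 0.53, adjusted p = 0.145). RPOTmp, a phage-type RNA polymerase of both organelles, and the mitochondrial PNPase, which trims and degrades RNA, had log2 differences of 0.09 and -0.05. Their adjusted p were 0.898 and 0.936. Of 18 nuclear genes of the respiratory chain 7 had a named probe set (AOX1A by the table of selected genes only) and 1 was higher, again beside 2.01% of all probe sets. It was SDH2-2, the iron-sulphur subunit of complex II, with 522, 472 and 568 in agp6 agp11 and 262, 253 and 232 in wild type (log2 difference 1.06 ± 0.23, adjusted p = 0.036; 0.071 without the second mutant array). SDH2-1, which encodes the same subunit, differed by 0.33 (adjusted p = 0.643), and AOX1A, the alternative oxidase, by 0.43 (adjusted p = 0.504). The second mutant array was the lowest for SDH2-2 and the highest for the other two.

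Markers of cell types were read beside the plastid result. The vegetative cell and tube genes ACT4, ACT12, ANX1 and ANX2 (4 named of 6 listed) had mean signals of 1071 to 3241 in agp6 agp11 and 883 to 2729 in wild type, and none passed. Of 3 named sperm cell genes (of 4 listed), HAP2 was higher in agp6 agp11 (507, 266 and 375, against 138, 96.8 and 124 in wild type; adjusted p = 0.014), and all 3 were higher with the block, beside 2.01% and 5.03% of all probe sets. HAP2 and DAZ3 were named only by the table of selected genes and are no independent evidence, and the same holds for ACT4 among the tube genes. For each of the 3 named sperm cell genes (HAP2, DAZ3 and MGH3) the second mutant array was the lowest mutant array. For ACT4 it was the highest. Photosynthetic cells were represented by RCA alone of 11 listed genes, with 26.0, 47.9 and 34.1 in agp6 agp11 and 35.6, 39.1 and 23.4 in wild type. The tapetum was represented by A9 alone of 6 listed, with 19.9, 23.98 and 19.4 in agp6 agp11 and 21.6, 20.8 and 18.2 in wild type. Among mutant arrays both genes were highest in the second, though A9 stayed below 40 on every array. RCA was also highest in the second among wild type arrays. The part of other cells in the plastid signals of the second mutant array was not tested.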

How the data were processed

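The authors hybridised 6 ATH1 arrays, normalised them in dChip to a baseline array by the invariant set method, and deposited model-based, PM-only signal intensities on a linear scale; quality was assessed in Affymetrix Expression Console. Probe-level errors and present calls were not used here. Intensities were raised to at least 1, taken as log2 and fitted with limma 3.58.1 in R 4.3.3 (eBayes with trend, prior degrees of freedom 5.54), with adjustment over all 22746 probe sets. Replicates were independent pollen tube preparations. Nothing states what a shared number marks, and numbers were taken as pairs since same-numbered arrays deviated together over all probe sets (correlations 0.239, 0.347 and 0.379). Over the plastid members these were 0.082, 0.071 and 0.066. Of the 150 probe sets 105 were named by the platform annotation (symbols from RefSeq, TAIR10.1) and 4 (orf25, orf143, AT2G26400, AT2G26430) only by a published table of genes selected on these arrays. Members and gene lists were chosen with earlier results of these data known. Named members were the 6 highest signals and the lowest of each genome, those nearest 40, those past the threshold with or without the block, and the 6 of widest spread. Alternatives were another normalisation, offset, filter, prior, block, lower-bound criterion, and leaving out arrays.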

Additional observations from a re-analysis of the deposited data

How the results depend on the processing

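The number of probe sets called over the whole array was 837 and moved to 1897 with the replicate block and to 1469 when the criterion was a fold change with a 90% lower bound over 1.3, and it ran between 372 and 871 when 1 array was left out. Fits with the block without 1 pair were chosen after seeing the data, and gave 625, 1914 and 2580 over all probe sets (without pair 1, 2 and 3). Of the 150 probe sets in the numbered range, 3 were called, 11 with the replicate block, 1 when only organelle members were counted, 1 to 5 without 1 array and 5, 10 and 51 with the block without pair 1, 2 and 3 (1 of the 10 and 1 of the 51 lower). Among the 92 organelle members 1 was called, 2 without the intensity trend or with the lower bound, 7 with the replicate block, 0 to 3 without 1 array and 3, 6 and 47 with the block without pair 1, 2 and 3. Among plastid members 0 were called, 1 with a mean signal above 40, without the trend or with the lower bound, 5 with the replicate block, 0 to 2 without 1 array and 2, 3 and 44 with the block without pair 1, 2 and 3. petN was the 1 plastid gene gained by the filter and by the fit without the trend (adjusted p = 0.031 and 0.047). Each lost call without wild type replicate 1 or 2 was of orf25 or AT2G26400. The mitochondrial median log2 difference of 0.24 was 0.65 with a mean signal above 40, 0.06 with an offset of 32 and 0.13 without probe sets that may match several genes, ran between -0.028 and 0.36 without 1 array, and was 0.083, 0.013 and 0.16 with the block without pair 1, 2 and 3; it was negative only without agp6 agp11 replicate 2. The plastid median of 0.38 ran between 0.27 and 0.43 under the other scalings and filters and between 0.03 and 0.61 without 1 array, the lowest without agp6 agp11 replicate 2. Organelle members above the signal minimum numbered 61 in agp6 agp11 and 57 in wild type at 40, 69 in agp6 agp11 and 66 in wild type at 30, and 41 in agp6 agp11 and 38 in wild type at 60. Signals near 40 limit what can be said of the mitochondrial members, and the causes of these dependences were not tested.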
